A study of Mus musculus with 8 samples.

Results

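Rheb, Mtor, Rptor, Tsc1 and Tsc2 encode the core of the switch that sets the activity of mTORC1, the growth-promoting kinase complex that holds autophagy in check. The 5 genes were taken by symbol from a table of 12404 genes, in which all 5 were present and all 5 passed the filter on low counts. They were chosen by the read counts of Rheb, which were much higher in cells exposed to bisphenol A (BPA) than in normal cells, so the differences of the 5 genes between these conditions are given as a description, with no test. The material was TM3, a mouse line derived from Leydig cells, which make testosterone in the testis. BPA is a building block of plastics with estrogen-like activity. BPA-exposed and normal cells were each profiled by RNA-seq and MeRIP-seq, an assay that enriches fragments carrying N6-methyladenosine (m6A) with an antibody, with 2 libraries in each of the 4 groups. Both conditions used the same line with no further genotype or agent in the labels, which give neither the dose nor the length of exposure. No source used here says whether replicates were separate cultures, so spreads and p-values measure the variation between these libraries, which may be technical.

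TSC2 is a GTPase-activating protein that, held in a complex by TSC1, switches off the small GTPase RHEB. RHEB in its GTP-bound form activates the kinase mTOR on the lysosome surface, where raptor (Rptor) presents substrates to it. Active mTORC1 phosphorylates regulators of translation and blocks the ULK1 kinase complex that starts autophagosome formation. These controls act mainly on protein activity and location, which RNA counts do not measure.

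The count table held between 6305121 and 10455643 reads per library. Its libraries differed widely within a condition: the BPA pair had a Spearman correlation of 0.549 and the normal pair one of 0.741 across the 8645 tested genes (genes are not independent replicates). Of genes with at least 100 reads in 1 replicate or both, 42.7% of 7163 in BPA and 20.6% of 9314 in normal cells had 10 or fewer reads in the other replicate. None of the 8 Leydig cell markers checked (such as Star, Cyp11a1 and Lhcgr) was among the rows of the table used here, so the cell identity rests on the label. Of 13 markers of other testis cells, 4 were in the table. Cd68, a macrophage marker, had 0 and 59 normal reads against 174 and 436 in BPA, and Acta2, of smooth muscle, had 80 and 352 against 498 and 1270. The Sertoli cell markers Clu and Wt1 together had 1784 and 2308 reads against 2287 and 721. The other macrophage markers checked, Adgre1 and Csf1r, and the smooth muscle and endothelial markers Myh11 and Pecam1 were not among these rows. Cd68 and Acta2 thus had more reads in both BPA libraries than in both normal ones, as Rheb did. On counts scaled to library size, groups did not overlap with BPA higher in 12.8% of all tested genes. Any part of other cell types in the Rheb difference was not tested.

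Rheb (ENSMUSG00000028945), the GTPase that activates mTORC1, had 123 reads in normal replicate 1 and 0 in normal replicate 2, against 622 in BPA replicate 1 and 1814 in BPA replicate 2. The groups did not overlap, and the order from high to low was BPA replicate 2, BPA replicate 1, normal replicate 1 and normal replicate 2. As CPM, counts put on a common library size scaled by the trimmed mean of M-values (TMM), the normal values were 10.7 and 0 and the BPA values 72.3 and 339. The group means were 5.33 ± 7.54 and 206 ± 189 CPM (SD, n = 2 each), so the spread between replicates was about as large as each mean. Groups did not overlap with BPA higher in 12.8% of all tested genes. Summed over replicates and scaled by total reads, Rheb was 23.5 times as abundant in BPA, with an exact 95% interval of 19.6 to 28.5 for counting error alone. In bulk RNA, more cells with the transcript and more transcript per cell cannot be told apart.

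The fit of all genes by edgeR gave Rheb a log2 fold change of 4.94 ± 1.44 (SE), or 5.26 ± 2.54 with the legacy form of the fit. Of all tested genes, 0.578% had a larger value. Leaving out BPA replicate 2, which held most of the Rheb reads, gave 3.54, and leaving out BPA replicate 1 gave 5.76. Without normal replicate 2, the library at 0, it was 4.20. Without normal replicate 1 the normal side is at 0 reads and the fitted value of 13.44 depends on the prior count. Within each library, ranked among the tested genes, Rheb stood above 16.1% of genes in normal replicate 1 and above 0% in normal replicate 2. In BPA replicates 1 and 2 it stood above 65.0% and 91.0%. This rank does not depend on scaling between libraries, but it rises where many genes have few reads. The median gene of the table had 233 and 150 reads in the normal libraries, against 15 and 2 in BPA. In BPA replicate 2, Tsc2 with 4 reads stood above 34.8% of tested genes. A gap between normal and BPA reads like that of Rheb was not confined to this gene. Of 1856 genes with at least 500 reads in both BPA libraries, 29 (1.56%) had 10 or fewer in 1 or both normal libraries. Those thresholds were chosen after the values were seen, and the counts of Rheb meet them. Of 9314 genes with at least 100 reads in a normal library, 1008 (10.8%, Rheb among them) had a gap between the normal replicates in the same direction. These had 100 or more reads in normal replicate 1 and 10 or fewer in normal replicate 2.

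**Figure D1:**
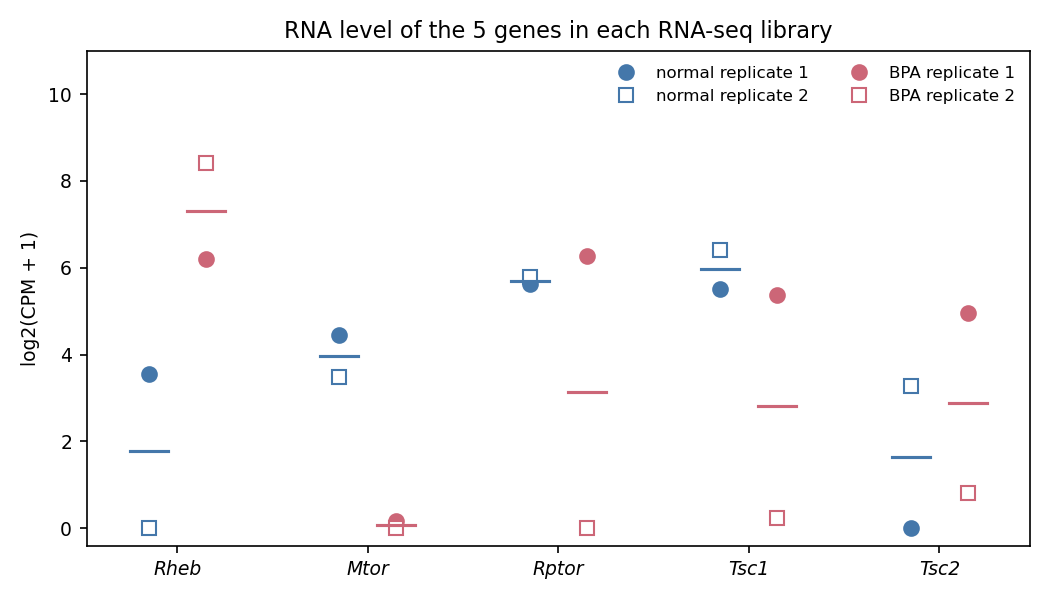
RNA level of Rheb, Mtor, Rptor, Tsc1 and Tsc2 as log2(CPM + 1) in the 4 RNA-seq libraries; circles are replicate 1, squares replicate 2, and short lines the mean of the plotted values of a condition (n = 2). Rheb lies higher in both BPA libraries (72.3 and 339 CPM) than in both normal ones (10.7 and 0), Mtor lies near 0 in both BPA libraries, and Rptor, Tsc1 and Tsc2 are high in BPA replicate 1 and at or near 0 in BPA replicate 2.

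The Rheb gene lies at chr5:24802823-24842361 on the minus strand of GRCm38.p6. Its promoter, from 250 bases before to 50 bases after the RefSeq start (chr5:24842312-24842611), is shown because it alone among the promoters of the 5 genes holds the E-box CACGTG, written in capitals. E-boxes are bound by several transcription factor families, among them TFEB and TFE3, which mTORC1 keeps in the cytoplasm.
Rheb promoter: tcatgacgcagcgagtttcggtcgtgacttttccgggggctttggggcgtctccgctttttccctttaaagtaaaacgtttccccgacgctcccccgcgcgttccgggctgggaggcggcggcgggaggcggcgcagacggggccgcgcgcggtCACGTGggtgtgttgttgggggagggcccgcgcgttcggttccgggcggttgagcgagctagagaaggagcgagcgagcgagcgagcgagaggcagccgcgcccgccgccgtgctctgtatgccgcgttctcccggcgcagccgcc
The motif, which is its own reverse complement, begins at position -96 from the start. Of all 32851 RefSeq promoters of this length, 7.15% hold it on either strand, and the window of Rheb has a GC content of 70.0% against a median of 52.7%. The longer TCACGTGA, found in 0.974% of promoters and overlapping the E-box, was in none of the 5. These matches describe letters in a window and show no binding.

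The 5 tested genes nearest to Rheb, by Euclidean distance over the 4 libraries on log2(CPM + 1), all had 3 or fewer reads in normal replicate 2, at distances from 1.05 to 1.87. Taf3, which encodes a subunit of the transcription factor TFIID, was the nearest, with 217 and 0 normal reads, against 1020 and 1987 in BPA. Atp5s, the SMN complex gene Gemin2, the ribosomal protein pseudogene Rpl9-ps6, whose reads may be shared with close copies, and the sodium/proton exchanger gene Slc9b1 followed in this order.

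Mtor (ENSMUSG00000028991), the kinase itself, had 241 and 79 reads in normal replicates 1 and 2, against 1 and 0 in BPA. The direction was opposite to that of Rheb, and the groups did not overlap. The means were 15.5 ± 7.60 CPM in normal cells and 0.0581 ± 0.0822 in BPA (SD, n = 2 each), and groups did not overlap with BPA lower in 27.2% of tested genes. Pooled over replicates, the BPA level was 0.00371 of the normal level, with an exact 95% counting interval of 9.38e-05 to 0.0208. The log2 fold change was -7.56 ± 3.49 (SE) and lay between -10.07 and -6.76 with each library left out in turn. Such loss of reads was common in this table: of 7029 genes with at least 50 reads in both normal libraries, 15.7% had 10 or fewer in both BPA libraries, thresholds chosen after the values were seen.

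Rptor (ENSMUSG00000025583), the substrate-presenting subunit of mTORC1, had 557 and 421 normal reads, against 658 and 0 in BPA. The normal libraries were close together and the BPA libraries lay on either side of them, so the groups overlapped. The means were 51.1 ± 4.05 and 38.2 ± 54.1 CPM, and the log2 fold change was -0.18 ± 1.30 (SE). That sign turned to 0.59 without BPA replicate 2, while without BPA replicate 1 the value was -11.71. An antisense gene, Rptoros, lies within the span of Rptor (chr11:119602905-119899591 in GRCm38.p6) and had 201 reads in normal replicate 1 and 0 in the other libraries. No source used here says whether counting used strand, so reads of the overlapping parts cannot be told apart.

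Tsc1 (ENSMUSG00000026812), the scaffold of the complex that restrains RHEB, had 519 and 655 normal reads, against 347 and 1 in BPA. Both BPA libraries lay below both normal ones, as in 27.2% of all tested genes. BPA replicate 1 lay below by little (40.3 CPM against 45.0 in normal replicate 1). The means were 64.5 ± 27.6 and 20.3 ± 28.4 CPM, with a log2 fold change of -1.36 ± 1.39 (SE) that became -0.65 when BPA replicate 2 was left out and -8.28 when BPA replicate 1 was. Tsc2 (ENSMUSG00000002496), which encodes the catalytic partner, had 0 and 68 normal reads, against 258 and 4 in BPA. Each condition had 1 library with reads and 1 at or near 0, and the groups overlapped. The means were 4.36 ± 6.17 and 15.4 ± 20.7 CPM. The log2 fold change of 2.37 ± 1.90 (SE) turned to -2.24 without BPA replicate 1 and was 10.33 without normal replicate 2. Leaving out a single library thus changed the size of the Tsc1 difference and the sign of the Tsc2 difference.

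BPA replicate 2 set Rheb apart from the other 4 genes. It had 1814 reads of Rheb and 0, 0, 1 and 4 reads of Mtor, Rptor, Tsc1 and Tsc2. Rheb thus made up 99.7% of the 1819 reads of the 5 genes there, with an exact 95% interval of 99.4% to 99.9% for counting error. In BPA replicate 1 it made up 33.0% of 1886 reads (30.9% to 35.2%) and in normal replicate 1 8.54% of 1440 (7.15% to 10.1%). In normal replicate 2 there were 0 Rheb reads of 1223, which allows a share of up to 0.301% by the same exact interval. These shares compare libraries, not the levels of different genes, since reads were not corrected for transcript length. Rptor, Tsc1 and Tsc2 all had over 200 reads in BPA replicate 1 and at most 4 in BPA replicate 2, and all 3 are among the 27.4% of genes with at least 100 reads in a BPA library that had 100 or more in BPA replicate 1 and 10 or fewer in BPA replicate 2.

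**Figure D2:**
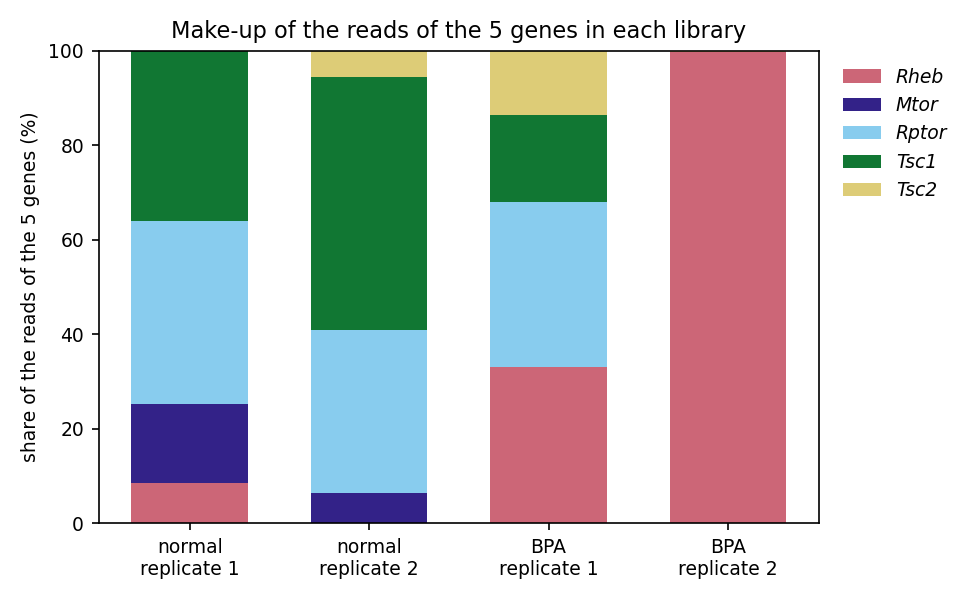
Share of each gene among the reads of the 5 genes, in percent, in each RNA-seq library; bars add to 100%. Rheb takes 8.54% in normal replicate 1, none in normal replicate 2, 33.0% in BPA replicate 1 and 99.7% in BPA replicate 2.

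**Figure D3:**
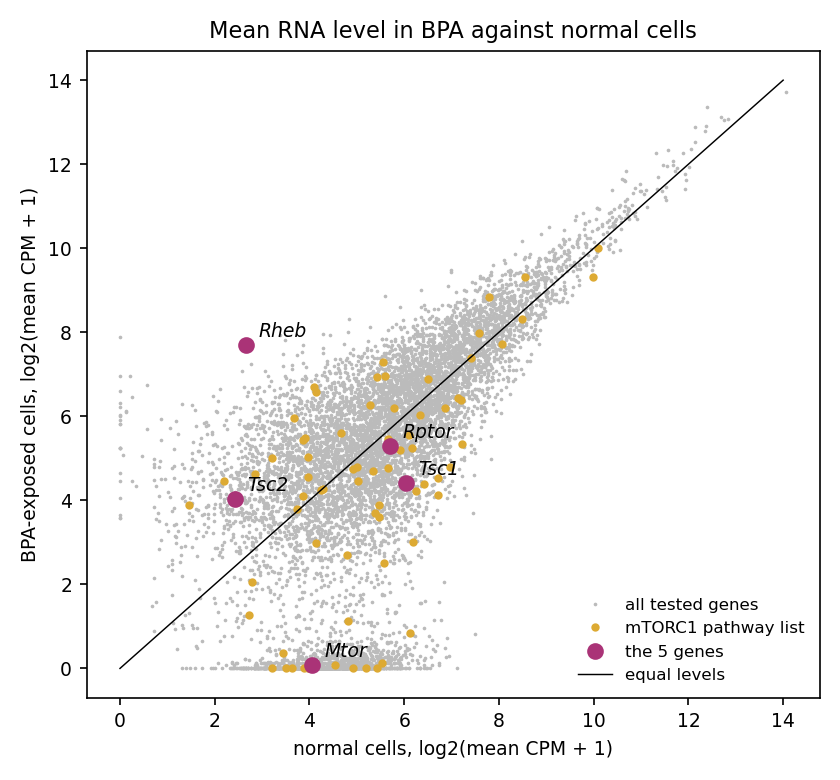
Mean level in BPA-exposed against normal cells, as log2(mean CPM + 1) with n = 2 libraries each, for the 8645 tested genes (grey), the mTORC1 pathway list (yellow) and the 5 genes (purple); the line marks equal levels. Rheb lies above the line with 206 against 5.33 CPM, and Mtor lies in the band of genes near 0 in BPA with 0.0581 against 15.5 CPM.

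The other genes of the pathway were taken from a list of 88, of which 78 were in the table and 71 passed the filter, which asks for counts in at least 2 libraries. None of the 71 passed an adjusted p of 0.05 in the quasi-likelihood test of edgeR (0 calls, Benjamini-Hochberg), nor did any of the 8645 tested genes (0%), where the lowest adjusted p was 0.372. Unadjusted, 0 list genes were higher and 6 lower with p under 0.05, against 2.41% (208) higher and 7.23% (625) lower of all tested genes. The all-gene split was 328 and 429 with DESeq2's size factors and 118 and 927 with TMM factors from abundant genes. With the legacy form of the fit it was 117 and 1095, and 11 list genes were lower instead of 6. These unadjusted counts moved more when a library was left out: the list had 0 higher and 0 lower without either normal library, 6 and 7 without BPA replicate 1, and 4 and 12 without BPA replicate 2. The all-gene split was then 46 and 4 without normal replicate 1, 126 and 8 without normal replicate 2, 963 and 777 without BPA replicate 1, and 730 and 875 without BPA replicate 2. DESeq2 called 4 of the list, all lower (Ulk2, Rb1cc1, Atg13 and Prkab2), and 3.08% of all tested genes. In the list 46 of 71 log2 fold changes were negative, with a median of -0.49, against 50.5% negative and a median of -0.02 over all tested genes. Of the 71 list genes, the groups did not overlap in 6 (8.45%) with BPA higher and 26 (36.6%) with BPA lower, against 12.8% and 27.2% of all tested genes. Leaving out BPA replicate 1 put the list median at -1.17 and the all-gene median at -0.80, and leaving out BPA replicate 2 put them at -1.22 and -0.30.

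Among the direct partners of the 5 genes, the mTORC1 subunit gene Mlst8 had 73 and 80 normal reads and none in BPA. Against a group floor of 3 counts, BPA was at least 42.9-fold lower, a bound for counting error only. Mlst8 had an unadjusted p of 0.0421 in edgeR and a log2 fold change of -9.05 ± 4.05 (SE) that depends on the prior count. Of the 71 tested list genes, 8 had 0 reads in both BPA libraries, against 788 (9.12%) of all tested genes. Akt1s1, which encodes the inhibitory subunit PRAS40, had 132 and 139 against 382 and 2 reads. Deptor, another inhibitor of mTOR, had 371 and 0 against 1 and 1096. Tbc1d7, the third subunit of the TSC complex, had 0 reads in both normal libraries and 4 and 391 in BPA. Rhebl1, the paralogue of Rheb, had a single read, in BPA replicate 2. Each BPA pair of Akt1s1, Deptor and Tbc1d7 thus held nearly all its reads in 1 library. Mapkap1, which had the most reads over the 4 libraries among genes specific to the related complex mTORC2, though fewer than Rictor in normal cells, had 24.4 ± 0.528 CPM in normal cells against 47.3 ± 46.3 in BPA (SD, n = 2 each), with overlapping groups.

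Genes for nutrient sensing at the lysosome had values on both sides. Lamtor5, of the Ragulator complex that anchors the Rag GTPases, had 135 and 69 normal reads and none in BPA, which was at least 57.2-fold lower on the same terms (unadjusted p = 0.0386 in edgeR). Nprl2, of the GATOR1 complex that inhibits the Rag GTPases, likewise had 138 and 83 normal reads and none in BPA, a bound of at least 62.0-fold lower (unadjusted p = 0.0405 in edgeR). Lamtor2, the Ragulator gene with the highest counts, had close replicates, with 145 ± 0.0192 CPM in normal cells and 83.0 ± 6.60 in BPA (SD, n = 2 each). Its log2 fold change was -0.82 ± 0.86 (SE), with an unadjusted p of 0.358 in edgeR. Fnip1, a partner of folliculin and the most abundant sensor gene, had 355 ± 71.4 against 320 ± 107 CPM. Of the Rag and Ragulator genes 4 of 8 tested were negative, and of the GATOR, KICSTOR and sensor genes 11 of 15. Over all tested genes, 50.5% were negative.

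On the input side, Prkab2, a subunit of the energy sensor AMPK that activates TSC2, had 636 and 274 normal reads, against 0 and 1 in BPA. The edgeR fit gave it an unadjusted p of 0.0414 and an adjusted p of 0.372, and DESeq2 an adjusted p of 0.0359. The catalytic AMPK gene Prkaa1 had 1616 and 856 against 458 and 3 reads. Ddit4, an mTORC1 inhibitor induced by stress, had 189 and 361 against 195 and 104, with overlapping groups, and Gsk3b, an abundant kinase gene that acts on TSC2, had 191 ± 47.4 against 254 ± 60.8 CPM. Pdpk1, the kinase that activates AKT, had 1257 and 1457 normal reads, against 23 and 408 in BPA. Without BPA replicate 2, Pdpk1 had a log2 fold change of -5.77 in edgeR. Without BPA replicate 1, Deptor and Insr, the insulin receptor gene, had 3.48 and 3.43. These fits hold only 1 BPA library. None of these 3 genes passed an adjusted p of 0.05 in edgeR with all libraries. Grb10, an adaptor of the insulin receptor and the most abundant gene of the PI3K and AKT input, had 221 ± 6.79 against 454 ± 378 CPM. In that role 8 of 14 tested genes were negative, against 50.5% of all tested genes.

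Of the outputs of mTORC1, genes for translation control had values on both sides. Of 11 tested, 8 were negative (72.7%), against 50.5% of all tested genes, with a median log2 fold change of -0.49. The groups did not overlap in 1 (9.09%) with BPA higher and 4 (36.4%) with BPA lower, against 12.8% and 27.2% of all tested genes. None of the 11 had an unadjusted p under 0.05 in edgeR. Rps6, which encodes the ribosomal protein phosphorylated by S6 kinase, had 419 and 387 normal reads, against 91 and 90 in BPA, at a log2 fold change of -1.69 ± 1.46 (SE). Eif4b, a helicase cofactor and the most abundant of them by reads over the 4 libraries, averaged 1084 ± 65.8 CPM in the normal and 1026 ± 308 in the BPA libraries. Rps6kb1, which encodes the S6 kinase, had 89.4 ± 47.0 against 117 ± 48.9 CPM, and Eif4ebp1, the repressor of cap-dependent translation, 79.9 ± 22.5 against 64.7 ± 24.1 (SD, n = 2 each). The differences of all 3 were smaller than their SD. Of the autophagy and lysosome outputs, 8 of 10 tested genes were negative (80%), with a median log2 fold change of -1.98. The groups did not overlap in 1 (10%) with BPA higher and 4 (40%) with BPA lower, beside the same all-gene shares. Ulk1 had 283 and 87 reads against 213 and 60, at a log2 fold change of 0.03 ± 1.41 (SE). Ulk2 had 355 and 317 reads against 0 and 0. The ULK1 partners Atg13 (892 and 56 against 0 and 0) and Rb1cc1 (825 and 508 against 9 and 3) had unadjusted p of 0.0419 and 0.0312 in edgeR. Wipi2, a lipid-binding autophagy gene, had 268 ± 88.9 against 210 ± 147 CPM.

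**Figure D4:**
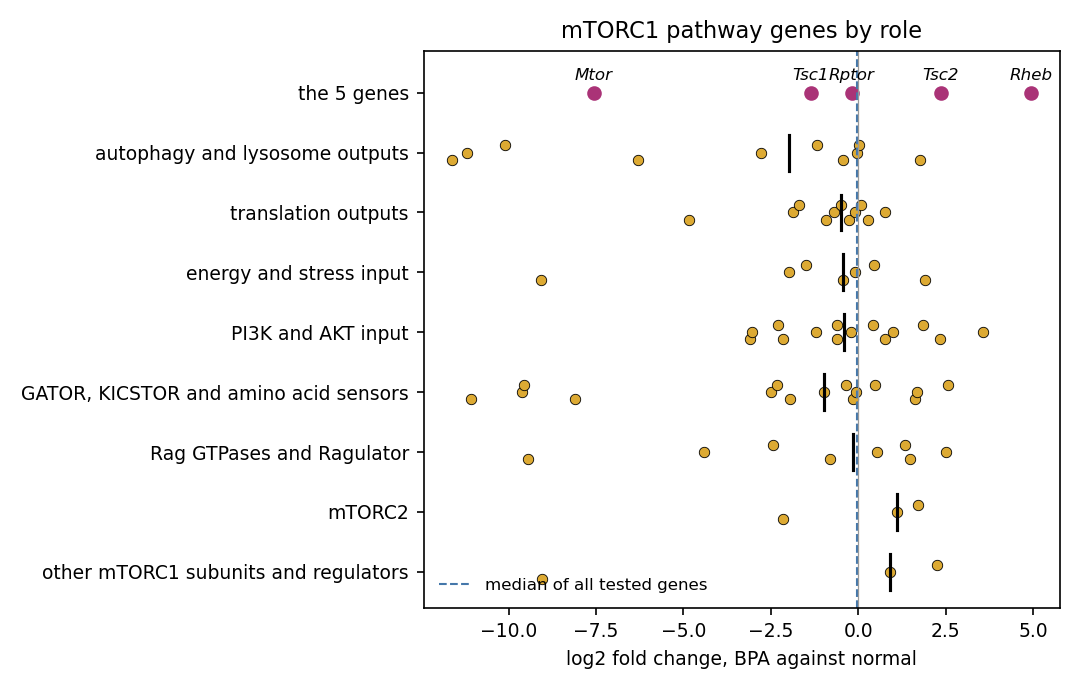
Log2 fold change of BPA against normal for the 71 tested genes of the mTORC1 pathway list by role (yellow, black bar the median of the role) and for the 5 genes (purple); the dashed line is the median of all tested genes at -0.02. Values spread to both sides in every role, 46 of 71 are negative, and Rheb at 4.94 and Mtor at -7.56 lie on opposite sides.

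The m6A peak table held 3331 peaks, all differential by the false discovery rate (FDR) in the authors' deposited table, with replicates pooled, and none was assigned to Rheb, Mtor, Rptor, Tsc1 or Tsc2. At least 1 peak was assigned to 17.7% of all genes of the count table and to 14.4% of the 5915 genes with mean levels in the range of the 5. The absence of 5 given genes is therefore no result about them, and their m6A level is not analysed here. In the pathway list 16 of 78 genes (20.5%) had together 21 peaks. By the fold changes of the authors' deposited table, 18 of the 21 had a higher and 3 a lower ratio of immunoprecipitate (IP) to input in BPA, where 68.8% of all peaks were higher and 31.2% lower.

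In these 21 peaks the input was lower in BPA more often than the IP was. RPM, reads as scaled by the authors, summed over all 3331 peaks to between 826089 and 894159 per column. The scale thus held mostly reads in these peaks, so RPM compares shares of such reads, not of whole libraries. As RPM, IP was higher in BPA in 10 and lower in 11 peaks. Input was lower in BPA in 19 of 21, against 61.3% of all peaks. The all-peak share for IP was not computed. The peak of Eif4e, which encodes the cap-binding protein released by mTORC1 signalling, lay at chr3:138261896-138262020 in the deposited coordinates, read as GRCm39. It had 348 RPM in the normal and 266 RPM in the BPA IP, and 485 RPM in the normal and 7.33 RPM in the BPA input, the last being 6 reads. Its log2 fold change was 6.44 in the authors' deposited table. The gene-level counts of Eif4e were not lower in BPA, with 3928 and 4414 reads against 3697 and 3350 in normal cells. A small input in BPA was usual: in 14 of the 21 peaks the BPA input was under 20 reads, as in 53.8% of all peaks.

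The 3 peaks with a lower ratio in BPA were those of Eif4ebp1, Rragc and Uvrag. The Eif4ebp1 peak (chr8:27765257-27765306, read as GRCm39) had a log2 fold change of -0.55 in the authors' deposited table. It had 424 and 289 RPM in the normal and BPA IP and 485 and 827 RPM in the input. Its IP was thus below its input in both conditions, at ratios of 0.873 and 0.349. Each column has its own scale, so these ratios do not show whether the peak was enriched. Rragc, a Rag GTPase gene, had 270 RPM in the normal IP and 0.51 in the BPA IP, with 45.8 and 4.89 RPM of input. The peak of Uvrag, a regulator of the class III PI3-kinase, had 201 and 0 RPM in the normal and BPA IP and 0 and 2.44 RPM of input. The peak of Rb1cc1 was among the 18 with a higher ratio, with 60.0 and 167 RPM in the normal and BPA IP and 157 and 3.67 RPM of input. The BPA input of Rragc, Uvrag and Rb1cc1 was 4, 2 and 3 reads. Pooled values give no spread between replicates, so none of these differences was tested here.

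**Figure D5:**
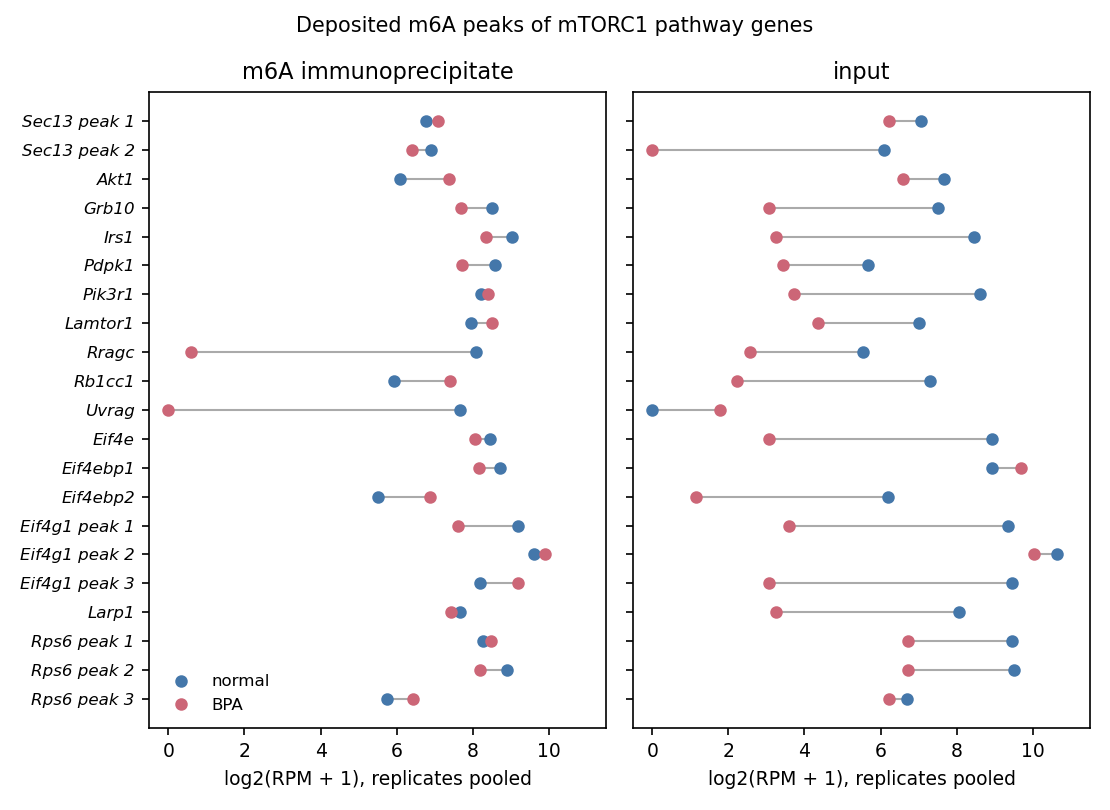
Deposited peaks of mTORC1 pathway genes as log2(RPM + 1) in the m6A immunoprecipitate (left) and the input (right), with replicates pooled by the authors; blue is normal, red BPA, and grey lines join the 2 values of a peak. Input is lower in BPA in 19 of 21 peaks, against 61.3% of all peaks, while IP is higher in 10 and lower in 11.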

How the data were processed

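Polyadenylated RNA was fragmented, and part was immunoprecipitated for m6A, per the labels' protocols. The deposited gene counts are whole reads, and the submitters' processing notes list GRCm39, GRCh38 and the tools featureCounts 2.0.1, HISAT2 2.2.1, fastp 0.20.1 and DESeq2 1.38.3, without their roles. The assay of the count columns (BPA and WT, numbered) is not in their names; they were read as the RNA-seq libraries, WT as normal, because the series design treats RNA-seq as the input of MeRIP-seq. Of the IDs, 98.9% had a symbol. The authors deposited RPM per peak for pooled IP and input, a log2 fold change, a p-value with FDR, and −log10 of p, which was not used; no source used here gives their peak caller or test. All RPM values were whole multiples of 1 step per column within 0.1 read, from which reads were recovered; they were not tested. The authors' log2 fold change exceeded the ratio of RPM ratios by a median of 0.78 over 1016 peaks whose columns all held 100 reads or more. Peak coordinates were made 1-based and read as GRCm39, since the notes list it and only 11.3% of 3176 peaks lay within their gene's GRCm38 span. RefSeq promoters and spans are GRCm38.p6.

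Counts were fitted with edgeR 4.0.16 (R 4.3.3), with TMM and filterByExpr at minimum count 10 and minimum total 15. The code was checked on simulated counts that varied far less between libraries than these data. Here the median coefficient of variation beyond counting error was 1.38, so that check does not show how the fit performs on these data. Genes were tested by the robust quasi-likelihood F test, with Benjamini-Hochberg at 0.05 over 8645 genes. The bias-adjusted form of that test was adopted after both forms had been run, because its counts matched earlier processing of these data; the legacy form, the default of this version, is an alternative. SE came from the F statistic. DESeq2 1.42.0 was an alternative, as were its size factors, no filter, a replicate block and each library left out; the legacy form and TMM factors from abundant genes (mean of 1000 reads or more) were added after seeing the data. The read thresholds for gaps and the 2 promoter motifs were also chosen then. Exact intervals and floors hold for counting error alone, because no molecular identifiers are described and PCR copies are not independent. The rule named 16 genes in any case, of which Tfeb is not analysed here, list genes with an unadjusted p under 0.05, the most abundant of each role and those with a peak; of the last the text gives examples. Insr and Ulk2 were named after their values were seen. The members and lists were chosen with earlier results of these data known.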

Additional observations from a re-analysis of the deposited data

How the results depend on the processing

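The direction of Rheb, Mtor and Tsc1 was the same under all alternatives that held these genes. Their groups did not overlap, so leaving out a library could hardly turn the sign. Rheb was also chosen by its direction, so its constant sign is a description only. With each library left out, the log2 fold change ranged from 3.54 to 13.44 for Rheb, -10.07 to -6.76 for Mtor, -11.71 to 0.59 for Rptor, -8.28 to -0.65 for Tsc1 and -2.24 to 10.33 for Tsc2. The sign of Rptor turned without BPA replicate 2 (0.59) and that of Tsc2 without BPA replicate 1 (-2.24). The other settings, which were scaling, filter, tool, block and the form of the fit, kept the sign of all 5. With DESeq2's size factors the median of all tested genes moved from -0.02 to 0.12 and the split at an unadjusted p under 0.05 from 208 higher and 625 lower to 328 and 429. With TMM factors from abundant genes the median was -0.29 and the split 118 and 927. DESeq2 called 266 genes in all and 4 of the list, where edgeR called 0. With each library left out, edgeR called 0 to 234 genes in all (1 without normal replicate 1, 234 and 229 without BPA replicate 1 and 2) and 0 to 2 of the list (2 and 1 without BPA replicate 1 and 2), and the list median ranged from -1.22 to -0.34. The cause was not tested; a lone library is assumed to vary like the other group. All 21 peaks also had an authors' FDR under 0.01, as did 3299 of all 3331 peaks. The deviations of same-numbered libraries had a correlation of 0.0041, so the numbers were not taken to pair them. With the replicate number as a block, Rheb had 4.72 and edgeR called 0 genes, with 164 higher and 52 lower by unadjusted p. Without the filter on low counts the split was 397 and 193 and the all-gene median -0.37. The legacy form kept 0 adjusted calls, and its SE was larger for Rheb (2.54 against 1.44) and smaller for Mtor (2.49 against 3.49). Restricting the fit to a mean of 1000 reads or more leaves none of the 5 genes. Counting intervals on recovered peak reads were not run.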
